A study of Homo sapiens with 18 samples.

Results

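The expression of 39 genes of ribosome biogenesis and RNA polymerase I, out of 28277 genes in the count table, was followed in OVCAR3-KRAB cells with and without XIST knockdown (KD). The genes were listed by function and found in the table by symbol. The list was chosen with earlier results of these data known, so its shares beside those of all genes are a description. OVCAR3 cells are an established line from an ovarian cancer, and all cells here carried dCas9-KRAB, a nuclease-dead Cas9 fused to a repressor domain. Cells with a control guide against the Gal4 promoter (sgCtl) or with a guide against the XIST promoter (sgXIST7 or sgXIST9) were cultured at 1% oxygen for 24 h or in normoxia. Each of these 6 groups had 3 replicates, and 18 RNA-seq libraries were compared. The cells with a guide, called a line here, were clonal, and the sources used here do not say how many clones of a guide were sequenced, so that effects of a guide and of a clone cannot be told apart. The study calls the replicates biological, whereas the labels do not say whether they were separate cultures, so p-values measure the spread between these libraries.

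Ribosomes are built in the nucleolus, where RNA polymerase I transcribes the long ribosomal RNA precursor. Small nucleolar ribonucleoproteins (snoRNPs) guide the chemical modification of this RNA, the small subunit processome and the large subunit assembly factors fold and cut it, and most of these proteins leave before the subunits reach the cytoplasm. Many of the genes are known targets of MYC and are highly expressed in fast growing cells, cancer cell lines included.

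Total counts per library ranged from 11794375 to 24906936. The targeted gene, XIST, had 242 to 867 CPM (counts scaled to library size by TMM) in sgCtl normoxia, 0.0436 to 0.222 in sgXIST7 and 29.0 to 53.6 in sgXIST9, and in hypoxia it had 123 to 249, 0 to 0.259 and 16.3 to 32.2. The libraries thus followed their guide labels in both oxygen states. Of 10 hypoxia markers, 9 rose in each of the 3 lines. Of the 8 markers of ovarian carcinoma epithelium, EPCAM and KRT18 were high (156 to 251 and 129 to 251 CPM), whereas CDH1, MUC16, WT1 and MSLN were nearly absent, with at most 0.695 CPM in any library. PAX8 was low, at 0.828 to 5.94 CPM. The name OVCAR3 is taken from the labels and the study, and as a set these markers do not bear it out. KRT8 had 4.07 to 43.3 CPM. In normoxia it was higher in sgXIST7 and sgXIST9 than in sgCtl (log2 fold change 1.92 and 1.89, adjusted p = 1.5e-06 and 1.5e-06, edgeR). Of the blood markers, PTPRC and CD3E reached 1 count at most and CD79A 14 counts, whereas CD68, a gene of macrophage lysosomes, had more than 3 counts in all 18 libraries (at most 55.8 CPM). The summed level of 10 markers of other cell types was 14.0 to 31.1 CPM in sgCtl, 99.6 to 328 CPM in sgXIST7 and 51.5 to 117 CPM in sgXIST9. The collagen gene COL1A2 reached 306 CPM in sgXIST7 hypoxia, at most 69.9 CPM in sgXIST9 and at most 0.403 CPM in sgCtl. The part of these markers in differences between lines was not tested. The sgCtl hypoxia replicate 3 library stood apart from its group for many of the genes below, and values are also given without it, or without the hypoxia replicate 3 libraries of all 3 lines.

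After 24 h of hypoxia, 21 of the 38 genes tested fell and 3 rose in sgCtl, 31 fell and 4 rose in sgXIST7, and 30 fell and 0 rose in sgXIST9 (edgeR quasi-likelihood test, Benjamini-Hochberg adjusted p under 0.05 over 14938 genes). Among all genes tested, 25.2% fell and 26.1% rose in sgCtl, 29.5% fell and 29.5% rose in sgXIST7, and 24.8% fell and 30.5% rose in sgXIST9. Over the 38 genes the log2 fold changes had a median of -0.44 in sgCtl, -0.85 in sgXIST7 and -0.79 in sgXIST9, against 0.02, 0.01 and 0.09 over all genes tested. For sgXIST9, no gene rose at an unadjusted p under 0.05 (0 of 38), and DESeq2 also called 0 higher. PWP2, a small subunit processome protein, had 0 counts in every library and was not tested. In hg38 its exons lie in a duplicated stretch of chromosome 21, where 7.78% of its 50-base stretches occur once in the genome.

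The falls were shared between lines for many genes. In all 3 lines 19 genes fell (16.7% of all genes tested), and in both KD lines 27 fell (21.2%). Of these 27, 8 did not pass in sgCtl (4.57% of all genes had this pattern). Only 4 genes rose in any line: PES1, RRP12 and DDX18 in sgCtl and sgXIST7, and IMP3 in sgXIST7. With the threshold of the study, a change of more than 1 on the log2 scale with an adjusted p under 0.01, 1 gene was lower in sgCtl, 14 in sgXIST7 and 13 in sgXIST9 (8.49%, 12.2% and 8.58% of all genes tested). The 3 hypoxia libraries lay below the 3 normoxia libraries without overlap for 21 genes in sgCtl (28.1% of all genes tested did so), for 25 in sgXIST7 (32.1%) and for 34 in sgXIST9 (30.8%). They lay above for 4, 4 and 1 genes (26.8%, 31.8% and 35.1% of all genes). In bulk RNA, fewer cells of a kind and less RNA per cell cannot be told apart.

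**Figure D1:**
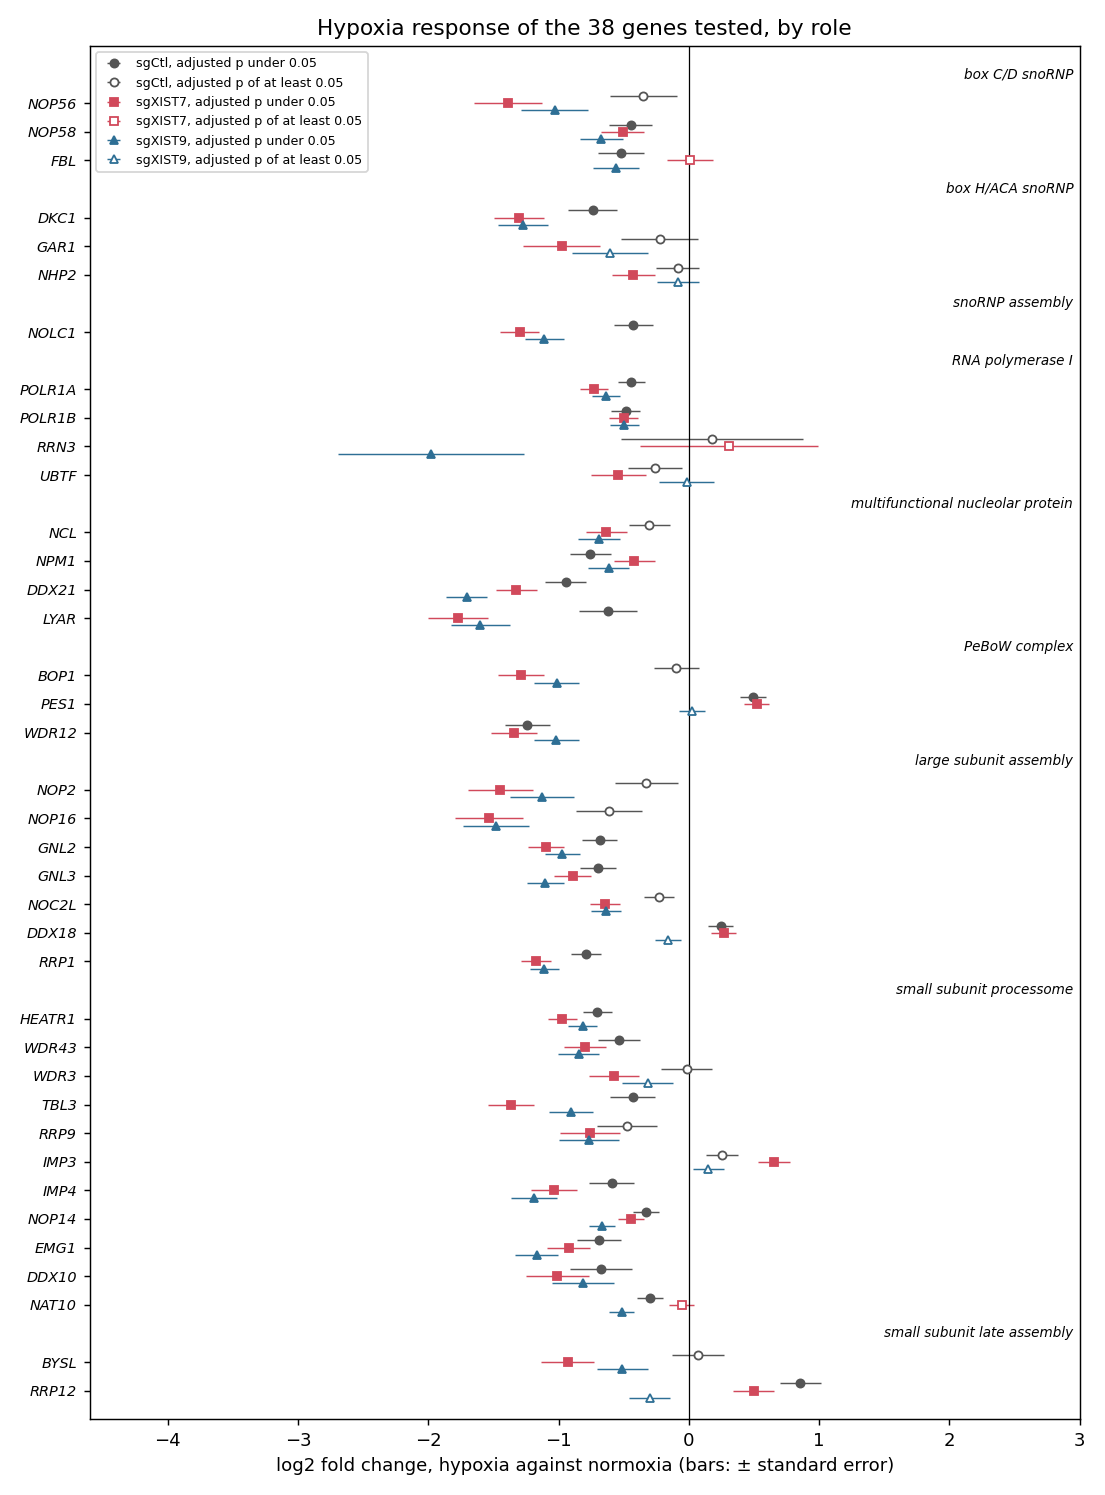
Log2 fold change of the 38 genes tested, hypoxia against normoxia, with its standard error, for sgCtl (grey circles), sgXIST7 (red squares) and sgXIST9 (blue triangles), grouped by role. Filled symbols passed an adjusted p of 0.05 (edgeR). Most symbols lie left of 0, and PES1, RRP12, DDX18 and IMP3 have filled symbols on the right.

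**Figure D2:**
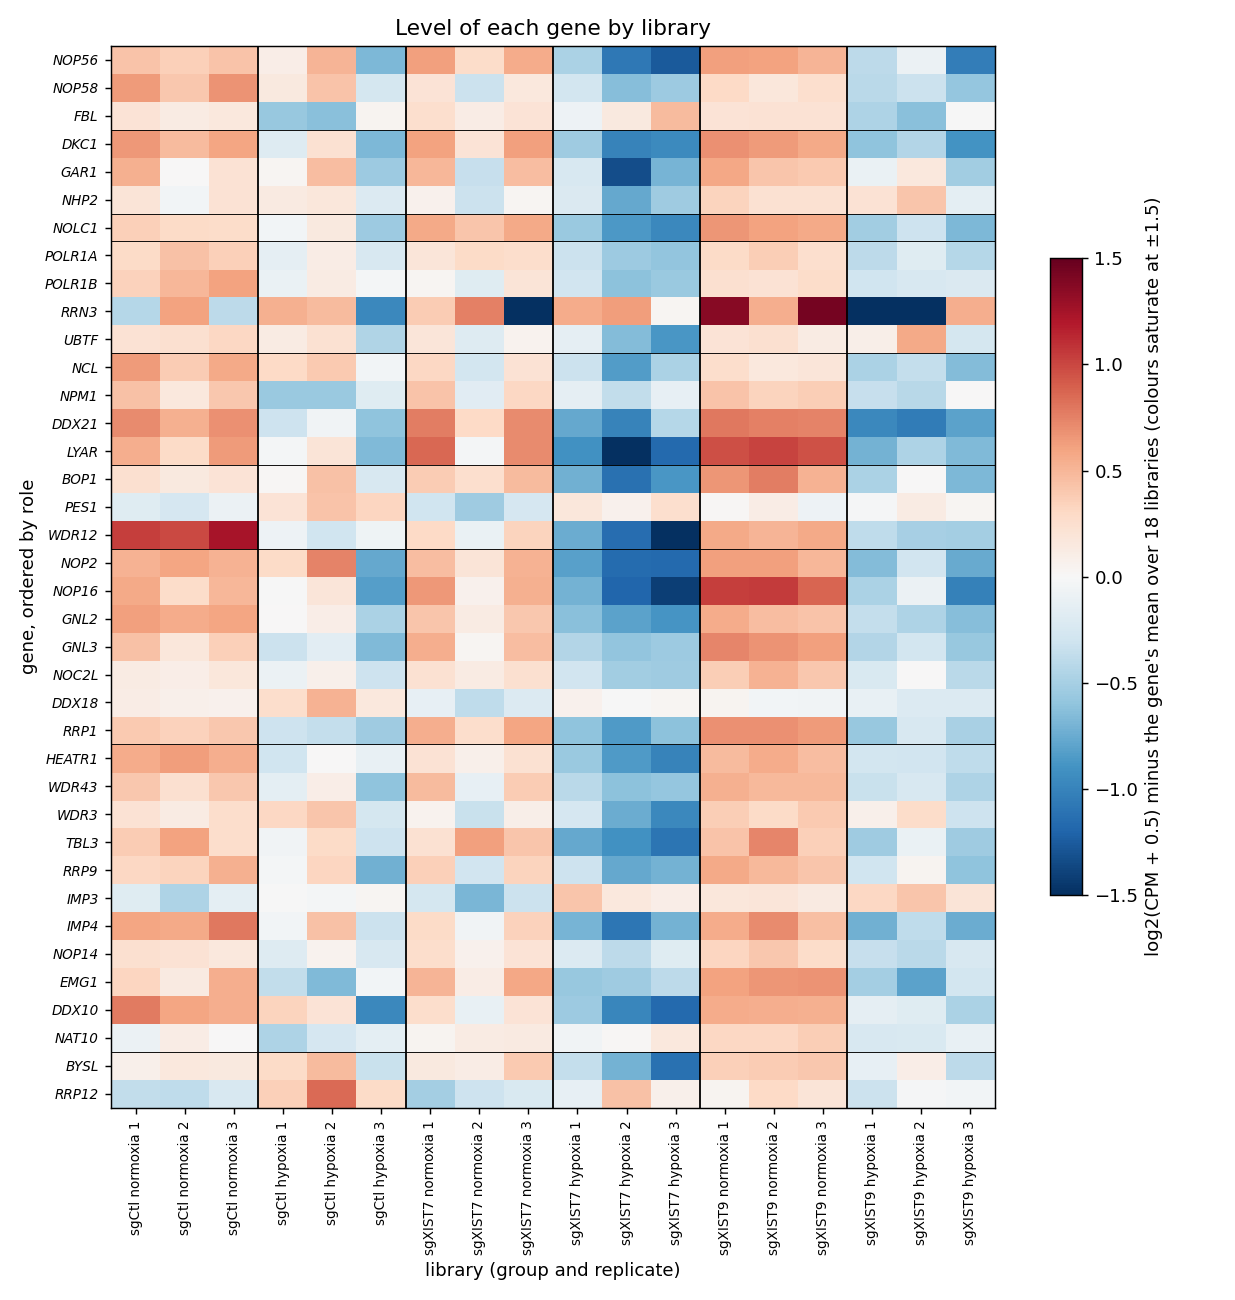
Level of each of the 38 genes in each of the 18 libraries, as log2(CPM + 0.5) minus the mean of that gene over the libraries. Hypoxia columns are mostly blue and normoxia columns mostly red, and sgCtl hypoxia replicate 3 is bluer than the other 2 libraries of its group.

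POLR1A is the largest subunit of the polymerase, POLR1B is the other large subunit of its catalytic core, UBTF is the factor that binds the ribosomal DNA promoter and RRN3 carries the polymerase to it. POLR1A (chr2:86020216-86105886, minus strand) had 179, 198 and 187 CPM in sgCtl normoxia and 134, 157 and 124 CPM in hypoxia. In sgXIST7 it had 166, 178 and 175 CPM in normoxia and 117, 100 and 97.0 CPM in hypoxia, and in sgXIST9 179, 189 and 174 CPM and 112, 128 and 108 CPM. No hypoxia library reached a normoxia library of any line. The log2 fold change was -0.44 ± 0.11 (SE) in sgCtl, -0.73 ± 0.11 in sgXIST7 and -0.64 ± 0.11 in sgXIST9 (adjusted p = 0.0023, 1.8e-05 and 8.5e-05, edgeR).

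POLR1B fell by nearly the same amount in each line. Its levels were 143, 159 and 172 CPM in sgCtl normoxia, 115, 99.1 and 129 CPM in sgXIST7 normoxia and 133, 132 and 137 CPM in sgXIST9 normoxia. In hypoxia they were 106, 122 and 110 CPM, 92.0, 73.5 and 76.7 CPM, and 91.8, 95.5 and 97.1 CPM. Within each line the oxygen states did not overlap. The log2 fold changes were -0.49 ± 0.11, -0.50 ± 0.11 and -0.50 ± 0.11 (adjusted p = 0.0017, 0.0010 and 0.0012, edgeR).

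UBTF passed the test only in sgXIST7, with 149, 115 and 136 CPM in normoxia and 120, 83.4 and 71.5 CPM in hypoxia (log2 fold change -0.54 ± 0.21, adjusted p = 0.036, edgeR). These groups overlapped, since the highest hypoxia library exceeded the lowest normoxia library, and the call was lost without sgXIST7 normoxia replicate 1 or 3 or hypoxia replicate 2 or 3 (adjusted p up to 0.17). Upper-quartile scaling and a fit without the filter on low counts also ended this call (adjusted p up to 0.057, edgeR). In sgCtl UBTF had 153, 155 and 163 CPM and then 144, 154 and 95.9 CPM, and in sgXIST9 152, 155 and 144 CPM and then 140, 196 and 109 CPM. Only replicate 3 was clearly low in hypoxia in these lines.

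RRN3 was weakly measured. Its row joins exons from 15060022 to 21820485 of chromosome 16, of which 20.5% overlap RRN3P1, and 69.9% of its 50-base stretches occur once in the genome, so its counts are uncertain. In sgXIST9 it had 25.5, 14.3 and 27.0 CPM in normoxia and 1.37, 1.86 and 14.3 CPM in hypoxia. Hypoxia replicate 3 lay just below the lowest normoxia library and the other 2 far below it (log2 fold change -1.98 ± 0.71, adjusted p = 0.027, edgeR). The adjusted p reached 0.11 without 1 of these libraries (normoxia replicate 1 or 3, hypoxia replicate 1 or 2), and the call was lost each time. It was also lost with a replicate block, without the filter on low counts and with only the groups compared in the fit (adjusted p up to 0.085). The sgCtl levels were 7.04, 14.9 and 7.23 CPM and then 14.2, 13.6 and 4.70 CPM, and those of sgXIST7 were 12.7, 16.5 and 3.01 CPM and then 14.4, 15.1 and 9.84 CPM. In neither line were the states apart.

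NOP56 and NOP58 are the scaffold proteins of the box C/D snoRNPs, which carry 2′-O-methylation guides, and FBL (fibrillarin) is their methyltransferase. NOP56 (chr20:2652632-2658393, plus strand) had 306, 291 and 305 CPM in sgCtl normoxia and 243, 323 and 142 CPM in hypoxia. Of the hypoxia libraries, replicate 2 lay above all normoxia libraries and the others below them, and the change did not pass the test (log2 fold change -0.35 ± 0.26, adjusted p = 0.27, edgeR). In sgXIST7 it had 349, 275 and 334 CPM and then 163, 108 and 94.9 CPM, and in sgXIST9 348, 345 and 324 CPM and then 173, 214 and 111 CPM. Both KD lines were clear of overlap, at -1.39 ± 0.26 and -1.03 ± 0.26 (adjusted p = 0.00023 and 0.0028, edgeR). Of its exon bases, 3.94% also belong to snoRNA or miRNA rows.

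NOP58 fell in all 3 lines. It had 364, 307 and 372 CPM in sgCtl normoxia and 257, 314 and 194 CPM in hypoxia, with 269, 186 and 259 CPM and 193, 150 and 160 CPM in sgXIST7 and 286, 262 and 277 CPM and 176, 186 and 156 CPM in sgXIST9. The states overlapped in sgCtl and sgXIST7 and were apart in sgXIST9. On the log2 scale the changes were -0.45 ± 0.16, -0.51 ± 0.16 and -0.67 ± 0.16 (adjusted p = 0.031, 0.014 and 0.0024, edgeR). The sgCtl call was lost without sgCtl normoxia replicate 1 or 3 or hypoxia replicate 1 or 3 (adjusted p up to 0.14), and the sgXIST7 call without sgXIST7 normoxia replicate 1 or 3 or hypoxia replicate 2 (up to 0.068).

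FBL did not pass the test in sgXIST7, where it had 212, 192 and 205 CPM in normoxia and 168, 196 and 248 CPM in hypoxia, which spread around the normoxia levels (log2 fold change 0.01 ± 0.18, adjusted p = 0.98, edgeR). In sgCtl it had 205, 193 and 198 CPM and then 120, 115 and 182 CPM, and in sgXIST9 205, 206 and 207 CPM and then 128, 115 and 176 CPM. In each hypoxia group replicate 3 was the highest of the 3. The falls were -0.52 ± 0.18 in sgCtl and -0.56 ± 0.18 in sgXIST9 (adjusted p = 0.021 and 0.013, edgeR). They were lost without sgCtl normoxia replicate 1 or hypoxia replicate 1 or 2 (adjusted p up to 0.099), and without sgXIST9 hypoxia replicate 1 or 2 (up to 0.068).

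DKC1 (dyskerin) is the pseudouridine synthase of the box H/ACA snoRNPs, of which GAR1 and NHP2 are core proteins, and NOLC1 (Nopp140) is a nucleolar chaperone of both snoRNP classes. DKC1 lies on the X chromosome (chrX:154762742-154777689, plus strand), and 7.075% of its exon bases also belong to snoRNA or miRNA rows. It had 164, 144 and 157 CPM in sgCtl normoxia, 159, 120 and 160 CPM in sgXIST7 normoxia and 168, 163 and 154 CPM in sgXIST9 normoxia. Hypoxia took it to 90.9, 122 and 64.8 CPM, to 71.9, 51.7 and 53.5 CPM and to 68.5, 76.8 and 55.6 CPM. Without overlap in any line, the log2 fold changes were -0.74 ± 0.19, -1.31 ± 0.19 and -1.27 ± 0.19 (adjusted p = 0.0038, 2.0e-05 and 3.1e-05, edgeR).

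GAR1 had 27.2, 18.7 and 21.6 CPM and then 19.0, 25.8 and 12.6 CPM in sgCtl, 26.5, 14.5 and 25.9 CPM and then 15.7, 7.11 and 11.2 CPM in sgXIST7, and 28.1, 25 and 24.6 CPM and then 17.3, 20.8 and 12.8 CPM in sgXIST9. Only the sgXIST9 states were free of overlap, yet the test passed only in sgXIST7 (-0.98 ± 0.30 on the log2 scale, adjusted p = 0.0094, edgeR), and there it was lost without hypoxia replicate 2 (adjusted p = 0.062). The values in sgCtl and sgXIST9 were -0.23 ± 0.29 and -0.61 ± 0.29 (adjusted p = 0.54 and 0.087, edgeR).

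NHP2 shares 43.8% of its exon bases with RMND5B on the other strand, and 81.9% of its 50-base stretches occur once in the genome. It had 80.6, 68.5 and 82.0 CPM and then 77.1, 79.1 and 61.1 CPM in sgCtl, 73.5, 55.9 and 71.8 CPM and then 60.4, 40.9 and 48.3 CPM in sgXIST7, and 88.7, 82.2 and 82.2 CPM and then 81.5, 94.0 and 63.3 CPM in sgXIST9. All 3 pairs of groups overlapped. It passed in sgXIST7 alone (log2 fold change -0.43 ± 0.16, adjusted p = 0.033, edgeR), a call lost without sgXIST7 normoxia replicate 1 or 3 or hypoxia replicate 2 or 3 (adjusted p up to 0.18).

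NOLC1 fell in all 3 lines. Its levels in sgCtl were 316, 300 and 297 CPM and then 239, 273 and 168 CPM, in sgXIST7 364, 327 and 365 CPM and then 167, 136 and 126 CPM, and in sgXIST9 389, 373 and 365 CPM and then 170, 198 and 154 CPM. No hypoxia library overlapped normoxia in its line. Log2 fold changes came to -0.43 ± 0.15, -1.30 ± 0.15 and -1.11 ± 0.15 (adjusted p = 0.024, 1.5e-06 and 1.0e-05, edgeR). The sgCtl call was lost without sgCtl normoxia replicate 1 or hypoxia replicate 3 (adjusted p up to 0.11).

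NCL (nucleolin) and NPM1 (nucleophosmin) are abundant RNA-binding chaperones of the nucleolus, DDX21 is an RNA helicase and LYAR is a nucleolar zinc finger protein. All 4 fell in both KD lines. LYAR (chr4:4267701-4290154, minus strand) had 63.1, 52.4 and 67.3 CPM in sgCtl normoxia, 78.2, 42.1 and 70.9 CPM in sgXIST7 normoxia and 84.5, 87.2 and 83.7 CPM in sgXIST9 normoxia. Its hypoxia levels were 42.2, 49.2 and 26.9 CPM, 22.7, 14.5 and 18.9 CPM, and 26.1, 31.0 and 27.0 CPM. Every hypoxia library lay below the normoxia libraries of its line. The log2 fold changes were -0.62 ± 0.22, -1.77 ± 0.23 and -1.6 ± 0.23 (adjusted p = 0.028, 5.0e-06 and 1.6e-05, edgeR). In sgCtl the call was lost without normoxia replicate 1 or 3 or hypoxia replicate 3 (adjusted p up to 0.11).

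DDX21 (chr10:68956170-68985069, plus strand) had log2 values of -0.94 ± 0.16, -1.32 ± 0.16 and -1.71 ± 0.16 in sgCtl, sgXIST7 and sgXIST9 (adjusted p = 0.00010, 2.0e-06 and 1.7e-07, edgeR). NCL fell by 0.64 ± 0.16 in sgXIST7 and by 0.69 ± 0.16 in sgXIST9, and its value in sgCtl was -0.30 ± 0.16 (adjusted p = 0.0024, 0.0014 and 0.12). NPM1, of whose 50-base stretches 62.5% occur once in the genome, had -0.76 ± 0.16, -0.42 ± 0.16 and -0.62 ± 0.16 (adjusted p = 0.00068, 0.028 and 0.0030). The sgXIST7 call of NPM1 was lost without sgXIST7 normoxia replicate 1 or 3 or hypoxia replicate 2 (adjusted p up to 0.14). Of the 4, NPM1 alone had its lowest value in sgCtl, and the difference between lines did not pass the test. DDX21, NCL and NPM1, like the genes given below by their fold changes alone, were picked with their values in view.

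PES1, BOP1 and WDR12 form the PeBoW complex, which is needed for the large subunit. The 3 genes did not move together. WDR12 (chr2:202874263-202911673, minus strand) had 144, 140 and 165 CPM in sgCtl normoxia and 66.3, 57.0 and 67.1 CPM in hypoxia, 86.1, 65.3 and 88.1 CPM and then 41.6, 31.5 and 21.1 CPM in sgXIST7, and 104, 100 and 104 CPM and then 53.8, 49.5 and 48.9 CPM in sgXIST9. The states were far apart in each line. On the log2 scale the changes were -1.24 ± 0.17, -1.34 ± 0.18 and -1.02 ± 0.17 (adjusted p = 1.9e-05, 5.8e-06 and 0.00010, edgeR). WDR12 is the 1 gene that met the threshold of the study in sgCtl, and it met it in both KD lines.

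BOP1 had 70.7, 66.3 and 69.1 CPM and then 60.7, 81.2 and 50.6 CPM in sgCtl, 78.5, 71.6 and 83.5 CPM and then 36.1, 27.2 and 32.5 CPM in sgXIST7, and 95.5, 103 and 86.5 CPM and then 42.9, 60.2 and 37.5 CPM in sgXIST9. In sgCtl the hypoxia libraries lay on both sides of the normoxia ones, and in the KD lines they lay below. Log2 fold changes came to -0.10 ± 0.17, -1.29 ± 0.18 and -1.02 ± 0.17 (adjusted p = 0.67, 9.1e-06 and 0.00011, edgeR).

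PES1 (chr22:30576625-30607013, minus strand) rose in sgCtl, from 130, 123 and 137 CPM to 169, 198 and 183 CPM, and in sgXIST7, from 119, 101 and 123 CPM to 165, 153 and 174 CPM. These groups did not overlap. In sgXIST9 it had 148, 158 and 139 CPM and then 144, 159 and 150 CPM, which lay in the same range. The log2 fold changes were 0.49 ± 0.10, 0.52 ± 0.10 and 0.02 ± 0.10 (adjusted p = 0.00054, 0.00026 and 0.85, edgeR).

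The large subunit assembly factors tested were NOP2, a methyltransferase of the large ribosomal RNA, the GTPases GNL2 and GNL3 (nucleostemin), the helicase DDX18, and NOP16, NOC2L and RRP1. In the KD lines 6 of the 7 fell and in sgCtl 3 did. NOP16 had the largest mean change, with 46.2, 37.4 and 43.9 CPM and then 30.8, 35.0 and 17.3 CPM in sgCtl, 48.9, 32.4 and 44.8 CPM and then 18.7, 13.3 and 11.3 CPM in sgXIST7, and 63.8, 64.6 and 57.1 CPM and then 22.1, 29.1 and 15 CPM in sgXIST9. The groups were apart in each line, although sgCtl hypoxia replicate 2 lay close under the lowest normoxia library. On the log2 scale the changes were -0.61 ± 0.25, -1.53 ± 0.26 and -1.48 ± 0.26 (adjusted p = 0.053, 8.2e-05 and 0.00012, edgeR). HIGD2A overlaps 12.4% of the NOP16 exon bases on the other strand.

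The other members of the group differed in how far sgCtl followed. NOP2 had -0.33 ± 0.24, -1.45 ± 0.25 and -1.13 ± 0.24 in sgCtl, sgXIST7 and sgXIST9, and the first did not pass (adjusted p = 0.27, edgeR). GNL2 fell by 0.68, 1.1 and 0.97 on the log2 scale, GNL3 fell by 0.70, 0.89 and 1.1 and RRP1 fell by 0.79, 1.17 and 1.11, each past the test in all 3 lines. NOC2L did so in the KD lines alone, at -0.64 in both. DDX18 had 122, 118 and 118 CPM and then 136, 162 and 126 CPM in sgCtl, 104, 86.1 and 97.8 CPM and then 118, 112 and 116 CPM in sgXIST7, and 116, 110 and 109 CPM and then 104, 97.9 and 97.4 CPM in sgXIST9. The first 2 lines were higher and the third lower in hypoxia, each without overlap. Only the small rises passed (log2 fold change 0.24 ± 0.10 and 0.27 ± 0.10, adjusted p = 0.047 and 0.027, edgeR), and these were lost without any 1 of the libraries of the sgCtl contrast but hypoxia replicate 3, and without sgXIST7 normoxia replicate 2 or 3 or hypoxia replicate 1 (adjusted p up to 0.26 and 0.12).

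The processome is the large particle that forms on the nascent precursor: HEATR1, WDR43, WDR3 and TBL3 are scaffold proteins of its subcomplexes, RRP9, IMP3 and IMP4 belong to its U3 snoRNP part, EMG1 and NAT10 modify the RNA, DDX10 is a helicase and NOP14 is a further assembly factor. Of the 11 tested, 8 fell in sgCtl and 9 in each KD line, and IMP3 was the only one to rise. IMP4 (chr2:130342897-130347966, plus strand) had the largest mean change, with 102, 100 and 117 CPM and then 65.6, 91.5 and 53.7 CPM in sgCtl, 82.3, 65.1 and 85.4 CPM and then 41.2, 31.5 and 41.0 CPM in sgXIST7, and 99.7, 110 and 92.7 CPM and then 40.7, 51.7 and 40.1 CPM in sgXIST9. There was no overlap in any line. Log2 fold changes came to -0.59 ± 0.17, -1.04 ± 0.18 and -1.19 ± 0.17 (adjusted p = 0.0087, 8.1e-05 and 2.4e-05, edgeR).

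IMP3, a partner of IMP4 with a single exon (chr15:75639085-75640323, minus strand), passed the test with a rise in sgXIST7. It had 50.7, 41.5 and 51.6 CPM and then 57.3, 56.1 and 58.6 CPM in sgCtl, 47.6, 35.5 and 45.7 CPM and then 76.7, 64.0 and 61.7 CPM in sgXIST7, and 64.5, 65.1 and 62.8 CPM and then 71.1, 76.7 and 65.5 CPM in sgXIST9. Hypoxia was above normoxia without overlap in all 3 lines, but only the step in sgXIST7 passed the test (log2 fold change 0.65 ± 0.12, adjusted p = 0.00022, edgeR). The other values were 0.26 ± 0.12 in sgCtl and 0.15 ± 0.12 in sgXIST9 (adjusted p = 0.091 and 0.31).

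TBL3 fell in each line, from 48.0, 55.8 and 44.1 CPM to 35.2, 44.7 and 29.3 CPM in sgCtl, from 42.8, 56.5 and 49.1 CPM to 21.3, 19.3 and 16.8 CPM in sgXIST7, and from 49.5, 61.4 and 46.9 CPM to 25.1, 34.0 and 25.1 CPM in sgXIST9. The sgCtl groups overlapped slightly and the others did not. The log2 fold changes were -0.43 ± 0.17, -1.36 ± 0.17 and -0.91 ± 0.17 (adjusted p = 0.044, 4.3e-06 and 0.00028, edgeR). The sgCtl call was lost without sgCtl normoxia replicate 1 or 2 or hypoxia replicate 1 or 3 (adjusted p up to 0.16). NOXO1 overlaps 23.0% of its exon bases on the other strand. HEATR1, of which LGALS8 overlaps 24.8% in the same manner, fell by 0.70, 0.97 and 0.81 on the log2 scale, and EMG1, with 28.2% under LPCAT3, fell by 0.69, 0.92 and 1.17. NAT10, an RNA acetyltransferase, fell by 0.30 in sgCtl and by 0.52 in sgXIST9 and had -0.06 ± 0.10 in sgXIST7 (adjusted p = 0.64, edgeR), and its sgCtl call was lost without sgCtl normoxia replicate 2 or hypoxia replicate 1 (adjusted p up to 0.11).

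BYSL and RRP12 act on the late precursor of the small subunit. BYSL had 24.4, 25.8 and 25.6 CPM and then 28.3, 32.5 and 18.3 CPM in sgCtl, 25.6, 25.2 and 30.5 CPM and then 18, 14.0 and 10.4 CPM in sgXIST7, and 29.7, 30.4 and 30.8 CPM and then 21.3, 24.9 and 17.5 CPM in sgXIST9. Hypoxia lay on both sides of normoxia in sgCtl and below it in the KD lines. On the log2 scale the changes were 0.07 ± 0.20, -0.93 ± 0.20 and -0.51 ± 0.20 (adjusted p = 0.80, 0.00072 and 0.036, edgeR), and the sgXIST9 call was lost without any 1 of its libraries but hypoxia replicate 2 (adjusted p up to 0.14).

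RRP12 (chr10:97356357-97401370, minus strand) differed in direction. It rose in sgCtl from 63.3, 63.0 and 69.6 CPM to 105, 148 and 101 CPM and in sgXIST7 from 57.6, 66.0 and 70.1 CPM to 75.2, 111 and 86.8 CPM, and had 84.4, 101 and 93.7 CPM and then 65.7, 81.3 and 79.6 CPM in sgXIST9. No group overlapped its partner, with hypoxia on top in the first 2 lines and normoxia on top in sgXIST9. Log2 fold changes came to 0.85 ± 0.16, 0.50 ± 0.16 and -0.30 ± 0.16 (adjusted p = 0.00028, 0.012 and 0.11, edgeR). The sgXIST7 call was lost without normoxia replicate 1 or hypoxia replicate 2 (adjusted p up to 0.091).

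**Figure D3:**
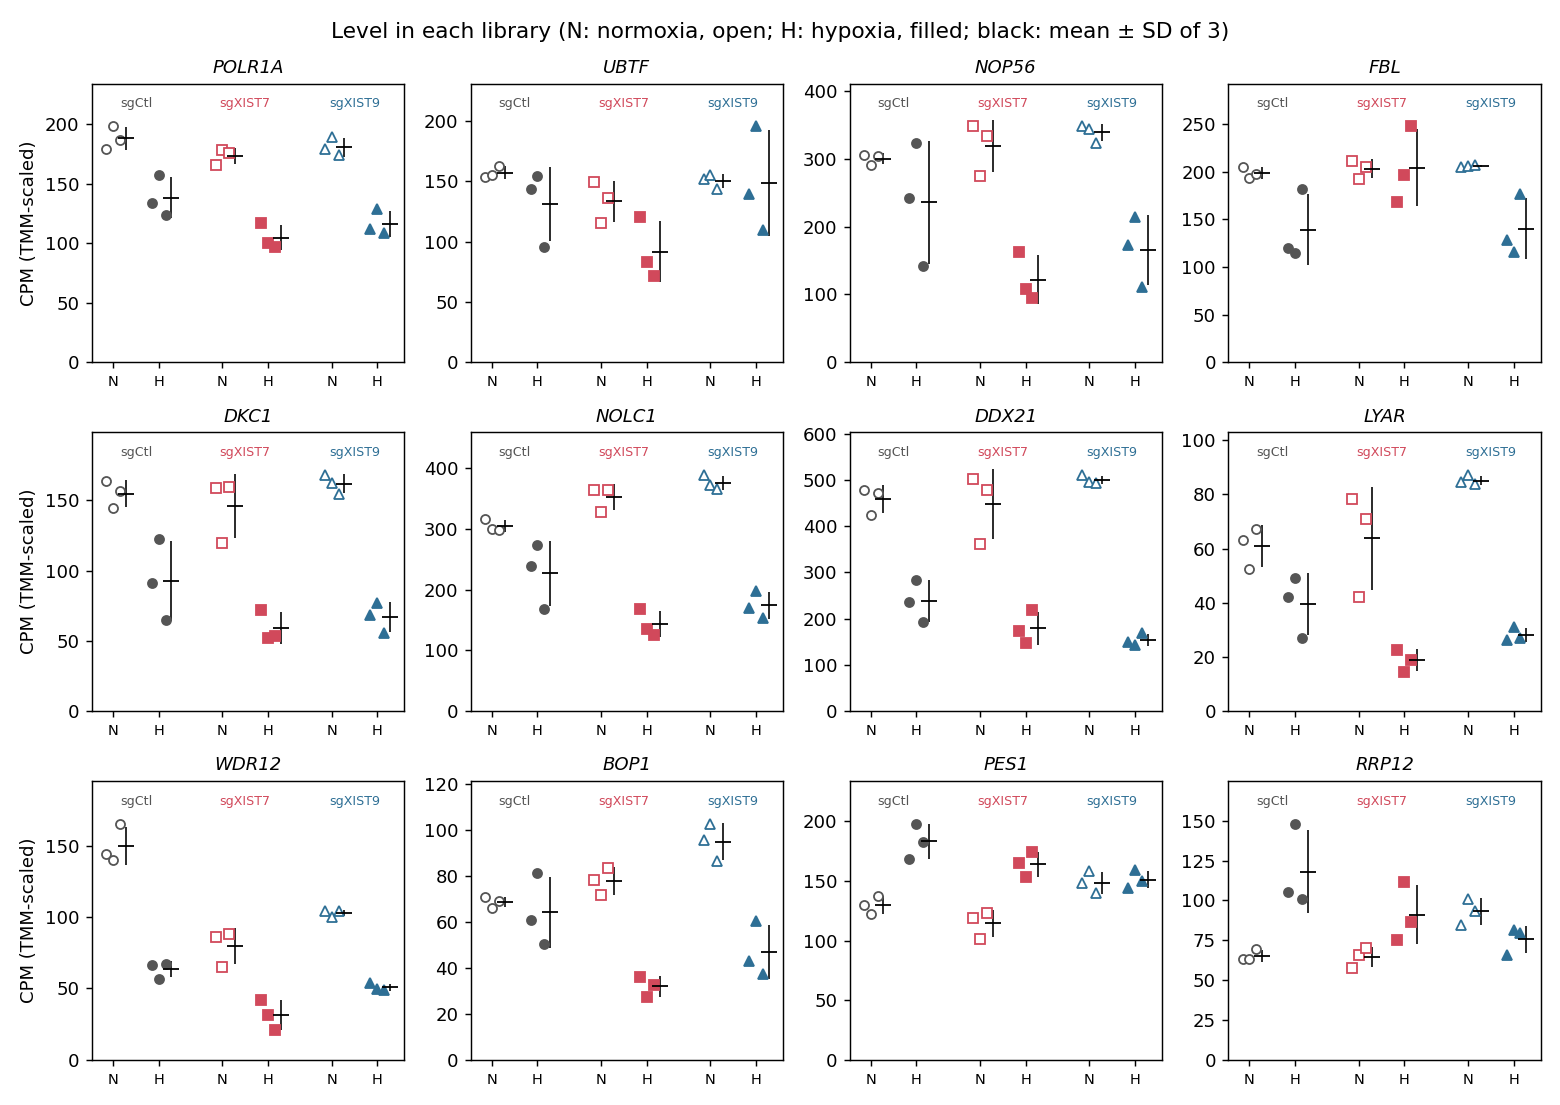
CPM of 12 of the genes in each library, with normoxia (N) as open and hypoxia (H) as filled symbols and the mean ± SD of 3 in black, on axes that start at 0. DKC1, NOLC1, DDX21, LYAR and WDR12 were lower in each hypoxia library than in any normoxia library of their line, whereas PES1 and RRP12 were higher in hypoxia in sgCtl and sgXIST7.

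Per length, the 38 genes were well expressed. In sgCtl normoxia their median was 32.0 RPKM (CPM per kilobase of exon on the main chromosomes), against 5.78 over all genes tested. NPM1 was the highest at 743 RPKM, followed by NCL at 378, FBL at 177, NOP58 at 174 and NOP56 at 136, and the lowest were BYSL at 14.7, RRP12 at 13.7, TBL3 at 7.28 and RRN3 at 1.88 RPKM.

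Promoter windows of 300 bases, 250 before the start of transcription and 50 from it on, were given by RefSeq (GRCh38.p14) for 34 of the 39 genes. The letters CACGTG, the E-box that MYC with MAX and other factors of their class can bind, read the same on both strands. They occurred in the windows of 15 of the 34 genes (44.1%). A gene was counted when any of its windows held the letters. The share was 8.77% of the 27305 genes with a window and 12.4% of the 11114 tested genes with a window. It was 32.2% of 90 other pathway genes and 7.04% of 71 cytosolic ribosomal protein genes. Counted by single windows, it was 7.26% of all 35116 windows. The shorter letters ACGTG, searched on both strands and part of every CACGTG, were found in 18 of the 34 genes (52.9%), against 31.8% of the tested genes. Of the 17 genes with a window that fell in all 3 lines, 7 held CACGTG (41.2%), and of the 16 others tested, 7 did (43.8%).

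Of the 16 CACGTG matches in these windows, 14 lay within 50 bases of the start. A selection reads as follows with 10 bases on each side, 5′ to 3′ on the strand of the gene and with the match in capitals, for genes that fell in all 3 lines and for PES1, which rose in 2 and fell in none, to let the flanks be compared. Positions are counted from the transcript start that RefSeq gives the window with the match, which for LYAR, DDX21, GNL2, GNL3 and PES1 lies inside the span of the gene in the count table.
LYAR, 64 bases before the start, chr4:4290070-4290095, minus strand: gcggcgagtcCACGTGctccccgcgg
DDX21, 31 bases before the start, chr10:68956606-68956631, plus strand: ccgggtgtccCACGTGgtccccggcg
GNL2, from base 4 after the start, chr1:37595919-37595944, minus strand: acgtcgtgcaCACGTGgtccggcgtg
WDR43, from base 4, chr2:28894660-28894685, plus strand: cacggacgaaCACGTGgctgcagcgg
GNL3, from base 7, chr3:52686028-52686053, plus strand: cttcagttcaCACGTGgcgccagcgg
NOP14, from base 16, chr4:2963376-2963401, minus strand: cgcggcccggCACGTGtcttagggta
IMP4, from base 16, chr2:130342902-130342927, plus strand: ctcccggaccCACGTGgaagcggcac
PES1, from base 14, chr22:30591882-30591907, minus strand: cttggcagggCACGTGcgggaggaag
A match is a description of the letters, and binding was not measured here.

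The 6 host genes among the 38 (NOP56, NOP58, NCL, GNL3, WDR43 and DKC1) hold 22 snoRNA genes within their span, and 19 of these were tested. In sgCtl 2 of the 19 fell, in sgXIST7 7 and in sgXIST9 3, and 0 rose in any line at an adjusted p under 0.05. Among all genes tested, 25.2%, 29.5% and 24.8% fell and 26.1%, 29.5% and 30.5% rose in these lines. In NOP56, SNORD110 had log2 fold changes of 0.01 ± 0.34, -1.28 ± 0.35 and -0.96 ± 0.34 in sgCtl, sgXIST7 and sgXIST9, beside -0.35, -1.39 and -1.03 for the host (SNORD110 adjusted p = 0.99, 0.0043 and 0.024, edgeR). In GNL3, which fell in all 3 lines, SNORD19 had -0.08 ± 0.25, -0.11 ± 0.25 and -0.45 ± 0.25 (adjusted p = 0.85, 0.72 and 0.14, edgeR). The 2 snoRNAs were chosen after their values were seen.

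A wider list of 109 ribosome biogenesis and RNA polymerase I genes, 108 of them tested, also held more genes that fell than rose. In sgCtl 43 fell and 6 rose, in sgXIST7 66 and 8, and in sgXIST9 65 and 2, with medians of -0.22, -0.52 and -0.58. The shares over all genes tested were 25.2%, 29.5% and 24.8% for falls and 26.1%, 29.5% and 30.5% for rises. Among those that passed, the strongest in both KD lines were NIP7, a factor of large subunit maturation (-1.82 ± 0.20 and -1.73 ± 0.20), RRP1B (-1.67 ± 0.11 and -1.41 ± 0.11), the RNA polymerase I subunit POLR1E (-1.67 ± 0.23 and -1.45 ± 0.22) and TCOF1, the treacle protein that works with UBTF (-1.48 ± 0.10 and -1.46 ± 0.10). NOL6 in sgXIST7 (-1.39 ± 0.27) and the helicase DDX51 in sgXIST9 (-1.30 ± 0.12) completed these 5. In sgCtl the 5 that passed with the largest values were UTP18 (-1.35 ± 0.12), NIP7 (-1.22 ± 0.20), NUFIP1 (-1.19 ± 0.21), DDX24 (-1.17 ± 0.36) and, in the other direction, WDR46 (2.68 ± 0.90).

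Most genes for proteins of the finished ribosome passed in neither direction. Of 85 cytosolic ribosomal protein genes tested, 12 fell and 4 rose in sgCtl, 7 fell and 16 rose in sgXIST7, and 11 fell and 8 rose in sgXIST9. Their medians were -0.14, 0.13 and -0.04. Over all genes tested, 25.2% fell and 26.1% rose in sgCtl, 29.5% and 29.5% in sgXIST7, and 24.8% and 30.5% in sgXIST9.

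All 21 proliferation genes of a marker list fell in each line, with medians of -1.27, -2.11 and -2.13, and their summed level went from 5143 to 5201 CPM down to 1773 to 2135 CPM in sgCtl, from 4324 to 4627 down to 991 to 1196 CPM in sgXIST7, and from 4568 to 4780 down to 873 to 1281 CPM in sgXIST9. Their part in the falls of the ribosome biogenesis genes was not tested. For MYC itself the values were 0.16 ± 0.19, -0.34 ± 0.19 and -0.15 ± 0.19 on the log2 scale in the 3 lines, which did not pass (adjusted p = 0.51, 0.14 and 0.53, edgeR), with 59.5 to 130 CPM over the 18 libraries. Its partner MAX and the antagonist MXI1 went from 25.4 to 49.3 CPM and from 7.02 to 57.4 CPM in sgCtl on average, from 26.4 to 44.0 CPM and from 4.57 to 124 CPM in sgXIST7, and from 31.5 to 44.8 CPM and from 3.85 to 64.9 CPM in sgXIST9. These genes were part of a list of MYC family genes of which 6 of 8 tested rose and 1 fell in each line. Over all genes tested, 26.1%, 29.5% and 30.5% rose and 25.2%, 29.5% and 24.8% fell in the 3 lines.

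**Figure D4:**
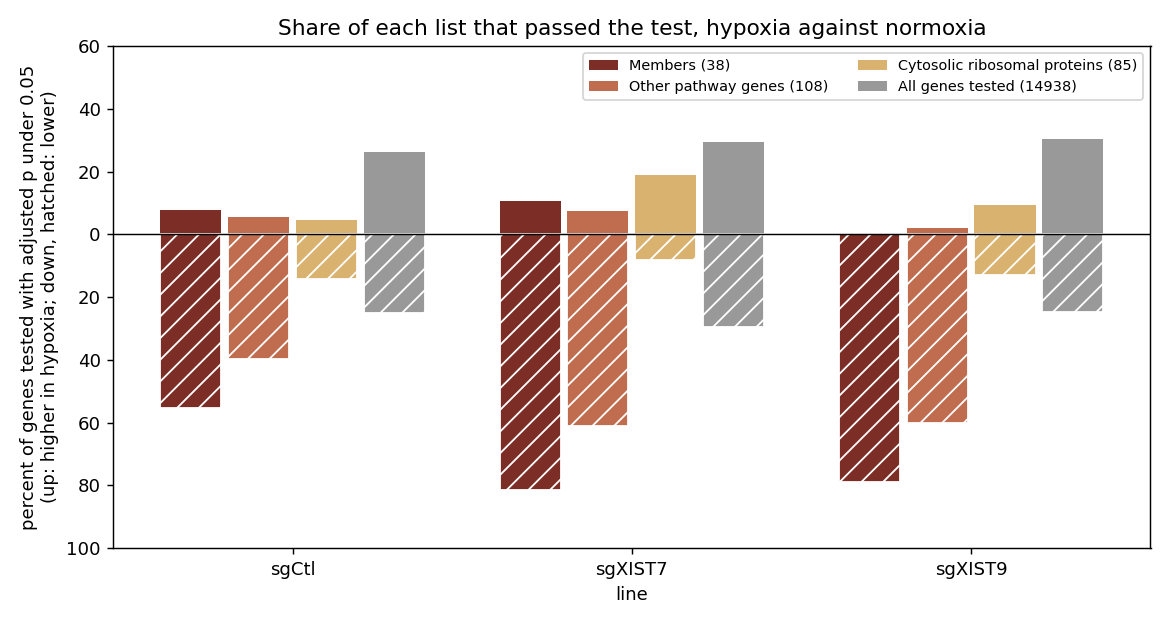
Percent of the genes tested in each list that passed an adjusted p of 0.05 (edgeR), higher in hypoxia above 0 and lower below (hatched), by line, for the 38 genes, 108 other pathway genes, 85 cytosolic ribosomal protein genes and all 14938 genes. Among the 38 genes 55.3%, 81.6% and 78.9% fell, beside 25.2%, 29.5% and 24.8% of all genes.

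The lines were also compared in normoxia. In sgXIST7 against sgCtl 5 of the 38 were lower and 0 higher (10.5% and 11.1% of all genes tested), with 0 higher also at an unadjusted p under 0.05 and by DESeq2, which called 6 lower. WDR12 was lower by 0.91 ± 0.17 on the log2 scale (79.9 against 150 CPM on average, no overlap, adjusted p = 0.00090, edgeR), POLR1B by 0.47 ± 0.11 (adjusted p = 0.0056) and HEATR1 by 0.39 ± 0.11 (adjusted p = 0.016). The HEATR1 call was lost without sgCtl or sgXIST7 replicate 2 (adjusted p up to 0.065). HEATR1 had 247, 259 and 244 CPM in sgCtl normoxia and 196, 178 and 198 CPM in sgXIST7 normoxia, so that the groups were apart. The other 2 were NOP58 and DDX18, whose calls were lost without 3 and 5 of 6 libraries (adjusted p up to 0.12 and 0.12). Without sgCtl replicate 1, 2 or 3, 3 genes passed, and without sgXIST7 replicate 2, 2 did.

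In sgXIST9 against sgCtl 1 gene was lower, WDR12, and 3 were higher (11.0% and 10.5% of all genes): IMP3 (log2 fold change 0.42 ± 0.12, adjusted p = 0.020, edgeR), NAT10 (0.31 ± 0.10, 0.028) and RRP12 (0.51 ± 0.16, 0.028). NAT10 had 92.4, 107 and 98.6 CPM in sgCtl normoxia and 121, 121 and 126 CPM in sgXIST9 normoxia, without overlap. The WDR12 call was lost without any 1 library (adjusted p up to 0.12). The IMP3 call was lost without sgCtl replicate 2 or sgXIST9 replicate 1 or 2, the RRP12 call without sgCtl replicate 1 or 2 or sgXIST9 replicate 2 or 3, and the NAT10 call without any library but sgCtl replicate 2 (adjusted p up to 0.115, 0.112 and 0.128). Between the KD lines, 3 genes were lower in sgXIST7 than in sgXIST9 and 0 higher (3.66% and 5.22% of all genes; 0 at an unadjusted p and by DESeq2): IMP3 (-0.58 ± 0.12, adjusted p = 0.0047), PES1 (-0.38 ± 0.10, 0.022) and RRP12 (-0.53 ± 0.16, 0.046). The RRP12 call was lost without any 1 library, and that of PES1 without sgXIST7 replicate 2 or sgXIST9 replicate 1 or 2. Without single libraries 0 to 2 genes passed for sgXIST9 against sgCtl and 1 or 2 between the KD lines. With only the groups compared in the fit, 4 genes were lower and 16 higher in sgXIST9 than in sgCtl (46.1% of all genes in either direction), and 10 were lower in sgXIST7 than in sgXIST9 (19.3%), while DESeq2 called 1 lower and 7 higher in sgXIST9 than in sgCtl. The comparisons with sgCtl share its libraries.

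In hypoxia 25 of the 38 genes were lower and 2, FBL and NAT10, were higher in sgXIST7 than in sgCtl (21.6% and 20.7% of all genes tested). The median log2 fold change was -0.53, given without that of all genes tested. HEATR1 had 136, 169 and 156 CPM in sgCtl hypoxia, 114, 93.0 and 83.7 CPM in sgXIST7 hypoxia and 139, 137 and 129 CPM in sgXIST9 hypoxia. The sgXIST7 libraries were below all others. HEATR1 was lower by 0.66 ± 0.11 on the log2 scale, BOP1 by 1.01 ± 0.18 and WDR12 by 1.01 ± 0.18 (adjusted p = 0.00018, 0.00026 and 0.00027, edgeR). Both higher calls were lost without single libraries, that of FBL without sgCtl replicate 1 or 2 or sgXIST7 replicate 3 and that of NAT10 without sgCtl replicate 1 or sgXIST7 replicate 3 (adjusted p up to 0.11 and 0.078). The number of genes that passed was 15 without sgCtl hypoxia replicate 2 and 19 to 31 without another library, and with only the groups compared it was 12. The share of all genes in these fits is not given here, so these counts are a description.

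In sgXIST9 against sgCtl 9 genes were lower and 0 higher (14.1% and 15.5% of all genes; 1 higher at an unadjusted p under 0.05 and 0 by DESeq2, which called 15 lower), with a median of -0.26. This median also lacks that of all genes beside it. DDX18 was lower by 0.50 ± 0.10 (adjusted p = 0.00091, edgeR), NCL by 0.72 ± 0.16 (0.0024) and RRP12 by 0.65 ± 0.16 (0.0052). NCL had 1262, 1343 and 997 CPM in sgCtl hypoxia and 738, 801 and 651 CPM in sgXIST9 hypoxia, without overlap. Without sgCtl hypoxia replicate 3, 19 genes were lower (40.9% of all genes then passed in either direction, beside 29.6% with every library), without replicate 2, 4 were, and with only the groups compared in the fit 1 was. With sgXIST7 set against sgXIST9, 7 genes were lower and FBL was higher (9.21% and 8.81% of all genes), led by HEATR1 (-0.48 ± 0.11, adjusted p = 0.0067), NHP2 (-0.67 ± 0.16, 0.0090) and WDR12 (-0.68 ± 0.18, 0.013). The call of NHP2 was lost without sgXIST7 or sgXIST9 hypoxia replicate 2, and that of WDR12 without sgXIST7 hypoxia replicate 3 or sgXIST9 hypoxia replicate 1. Those of FBL, BOP1, TBL3, UBTF and WDR3 were lost without 4 of 6 libraries each. Without sgXIST7 replicate 2 or 3 or sgXIST9 replicate 1 or 2, 2 genes passed, without sgXIST7 replicate 1, 13 did, and with only the groups compared 0 did. These counts, too, are given without the share of all genes.

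Whether the response itself differed was tested as an interaction. For sgXIST7 minus sgCtl, 5 of the 38 genes had a lower response and 0 a higher one (4.79% and 4.60% of all genes tested; at an unadjusted p under 0.05, 2 higher, and 0 by DESeq2). They were BOP1 (log2 difference -1.19 ± 0.25, adjusted p = 0.0088, edgeR), NOLC1 (-0.87 ± 0.21, 0.018), TBL3 (-0.93 ± 0.24, 0.027), LYAR (-1.15 ± 0.32, 0.033) and BYSL (-1.0 ± 0.28, 0.036). For sgXIST9 minus sgCtl, 2 genes passed, RRP12 (-1.16 ± 0.22, 0.0077) and BOP1 (-0.92 ± 0.25, 0.038), both lower (2.10% of all genes; 3.17% higher), with 0 higher at an unadjusted p and by DESeq2. The point estimates were lower than in sgCtl for 31 of the 38 genes in sgXIST7 and for 34 in sgXIST9, with medians of -0.33 and -0.38. The matching counts and medians over all genes are not given here, so these values are a description. Both differences use the same sgCtl libraries. Between the KD lines, 0 genes passed (0.736% of all genes lower and 0.602% higher, edgeR), with 7 higher at an unadjusted p and 5 higher by DESeq2.

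These counts depended on sgCtl hypoxia replicate 3. In that library 29 of the 38 genes were at their lowest level of the group, and replicate 3 was the lowest for 26 genes in sgXIST9 hypoxia and for 16 in sgXIST7 hypoxia. Without it, 13 genes had a lower and 1 a higher response in sgXIST7, and 14 a lower one in sgXIST9 (27.0% and 18.3% of all genes then passed in either direction). The fall in sgCtl itself was then called for 16 genes (median -0.29), and those no longer called were DDX10, LYAR, NOLC1, NOP58 and TBL3. With any other 1 library left out, 1 to 7 genes passed for sgXIST7 and 1 to 3 for sgXIST9. Without the 3 hypoxia libraries of replicate 3, 15 genes were lower and FBL higher in sgXIST7, and 15 were lower in sgXIST9. All 7 differences named above were among them, and 30 of 38 estimates were lower than with every library in each KD line. Of all genes tested, 29.5% and 20.7% then passed in either direction, beside 9.39% and 5.27% with every library. With single libraries left out, the calls of BOP1 in sgXIST7 and of RRP12 in sgXIST9 held each time (adjusted p up to 0.031 and 0.027), and the NOLC1 call was lost without sgCtl hypoxia replicate 2 or sgXIST7 hypoxia replicate 2 or 3 (up to 0.053). Those of TBL3, LYAR and BYSL in sgXIST7 and of BOP1 in sgXIST9 were lost without 8, 9, 9 and 10 of 12 libraries (up to 0.079, 0.097, 0.10 and 0.11).

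**Figure D5:**
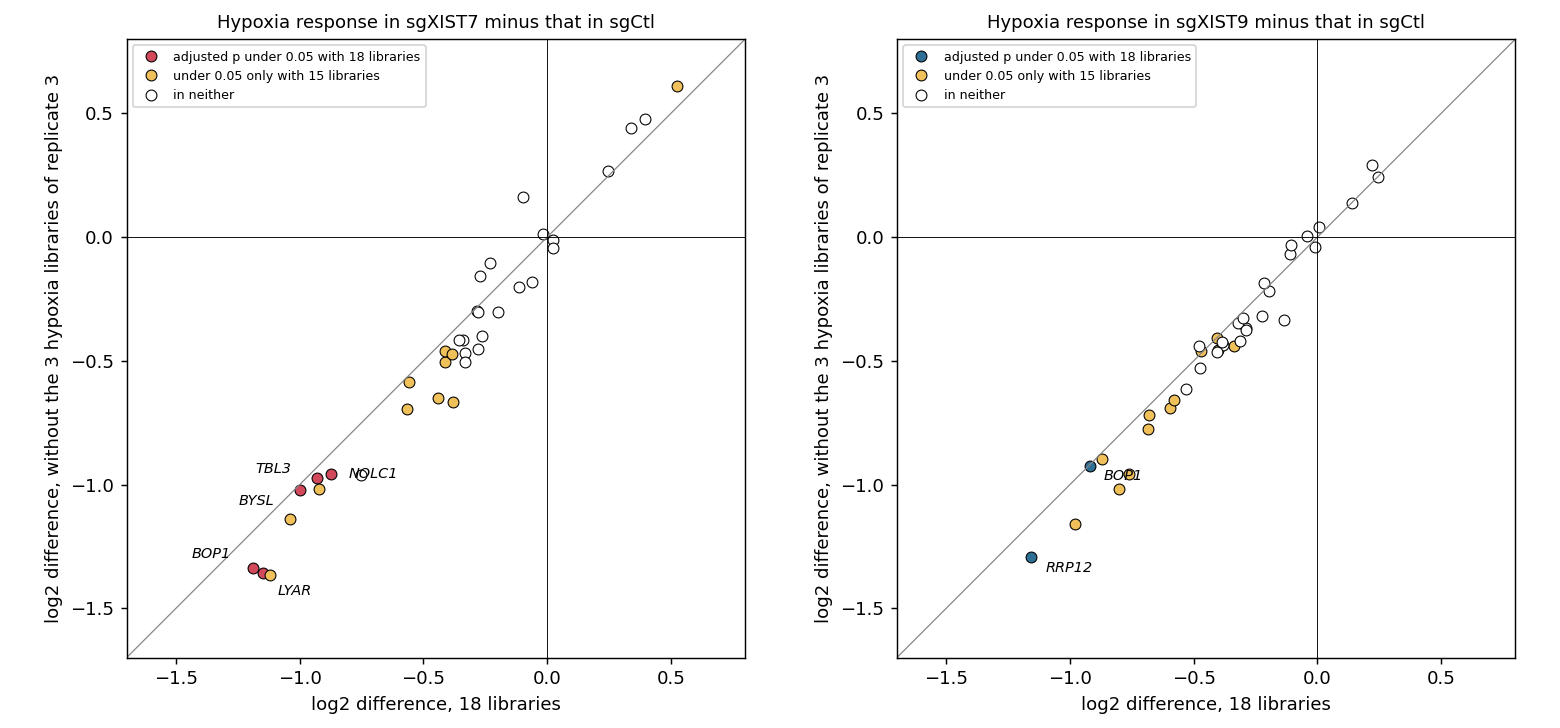
Difference of the hypoxia response (log2) between a KD line and sgCtl for 37 genes, with 18 libraries on the x axis and without the 3 hypoxia libraries of replicate 3 on the y axis, sgXIST7 on the left and sgXIST9 on the right. RRN3, whose sgXIST9 difference went from -2.16 to -4.31, is not drawn. Most points lie below 0, and 30 of 38 estimates in each line were lower without these libraries.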

How the data were processed

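RNA was extracted with Trizol, depleted of ribosomal RNA and sequenced as stranded paired-end libraries. The authors used Trimmomatic for trimming, HISAT2 for alignment to hg38 and featureCounts for counts per gene, and deposited 1 table of raw counts for 18 libraries. Tool versions, the annotation release and the strand setting of the counting are not given in the sources used here. Of 28279 lines, 2 broken records with 0 counts were left out. Counts were scaled by TMM and compared by quasi-likelihood tests in edgeR 4.0.16 (R 4.3.3, limma 3.58.1) in 1 robust fit of 6 groups. Genes were kept by filterByExpr (minimum count 10, minimum total 15), which left 14938, and p-values were adjusted over these by Benjamini-Hochberg. Fold changes used a prior count of 0.125. Values with ± are log2 fold changes with their SE unless stated otherwise.

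The members and lists were chosen with earlier results of these data known. Genes described in full were the RNA polymerase I and snoRNP genes, the gene of largest mean change in each other role, the genes with a difference in response, those that rose, and the leading calls between lines. Alternatives were DESeq2 1.42.0, other scalings, no filter, only the groups compared, a replicate block, the threshold of the study, and fits without single libraries or without the hypoxia replicate 3 libraries. The pipeline was tested on simulated data with 3-fold changes, which are larger than most changes reported here. A first version with smaller changes had missed its acceptance threshold, so the test does not cover changes of that size.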

Additional observations from a re-analysis of the deposited data

Results flagged for a closer look

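The hypoxia response differed between a KD line and sgCtl, by the test of the difference itself in edgeR, for the following genes. In sgXIST7 the log2 difference was -0.87 for NOLC1, -1.15 for LYAR, -1.19 for BOP1, -0.93 for TBL3 and -1.0 for BYSL. In sgXIST9 it was -0.92 for BOP1 and -1.16 for RRP12. The calls of BOP1 in sgXIST7 and RRP12 in sgXIST9 held without each single library, and the others were lost without at least 3 of 12. With only the groups compared, those of LYAR and BYSL in sgXIST7 and of BOP1 in sgXIST9 were lost too. The LYAR call was also lost without the filter, and that of BOP1 in sgXIST9 with upper-quartile scaling.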

How the results depend on the processing

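None of 68 named log2 fold changes reversed, and 38 kept their call under every alternative and without each library. Upper-quartile scaling ended 4 named calls, no filter 7, only the groups compared 16 and leaving out the hypoxia replicate 3 libraries 3. Among those ended by upper-quartile scaling were UBTF and NHP2 in sgXIST7. Among those ended with only the groups compared were NHP2 in sgXIST7, both DDX18 rises, and NOP58, FBL, NOLC1 and LYAR in sgCtl. Under the threshold of the study, 1, 14 and 13 genes passed in hypoxia in sgCtl, sgXIST7 and sgXIST9, 0 in each comparison of lines in normoxia, 4, 0 and 0 in hypoxia (sgXIST7 and sgXIST9 against sgCtl, sgXIST7 against sgXIST9), and 1 and 1 differences from sgCtl in response. It left 6, 22 and 20 of the other pathway genes. With only the groups compared in the fit, 15 passed in sgCtl hypoxia, 20 and 10 in normoxia (sgXIST9 against sgCtl, sgXIST7 against sgXIST9), 12, 1 and 0 in hypoxia, and 3 differences for sgXIST7. DESeq2 gave 8 in normoxia and 15 in hypoxia for sgXIST9 against sgCtl, 8 differences for sgXIST9 and 5 between KD lines. Without the hypoxia replicate 3 libraries, 18 genes passed for sgXIST9 against sgCtl and 14 for sgXIST7 against sgXIST9 in hypoxia, with 16, 15 and 4 differences in response. Median-of-ratios scaling gave 5 and upper-quartile scaling 1 difference for sgXIST9. Calls over all genes moved with the fit as well, as the shares given above for some fits show. The moves are therefore not read as particular to these genes. The cause of these moves was not tested.

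Without single libraries, the counts ranged from 17 to 26, 28 to 34 and 27 to 29 in hypoxia against normoxia, from 2 to 6, 0 to 2 and 1 to 2 between lines in normoxia, from 15 to 31, 4 to 19 and 2 to 13 in hypoxia, and from 1 to 14, 1 to 14 and 0 to 1 for differences in response. Other pathway genes ranged from 36 to 47, 63 to 78 and 57 to 69. The share of all genes in each of these fits is not given here, and the ranges are a description.

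With a replicate block, 4 differences passed for sgXIST9 and 2 between KD lines. It ended the call of RRN3 in sgXIST9 and no other named call. Of 45 pairs of libraries with the same number, 15 correlated above 0.1 in their deviations from the group means. Yet 16 of 18 libraries correlated best with their own number. The hypoxia replicate 3 libraries correlated at 0.38 (sgCtl and sgXIST7), 0.57 (sgCtl and sgXIST9) and 0.49 (sgXIST7 and sgXIST9). The labels do not say whether libraries of a number were handled together. The main fit held no term for structure that they share.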

Other observations

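The guide RNAs that the snoRNPs carry were counted by class. Of 159 box C/D snoRNA genes tested, which guide 2′-O-methylation, 37 fell and 14 rose in hypoxia in sgCtl, 66 fell and 18 rose in sgXIST7, and 59 fell and 17 rose in sgXIST9, with median log2 fold changes of -0.30, -0.72 and -0.68. Their summed level did not follow the medians, with means of 16315 CPM in normoxia and 20080 CPM in hypoxia in sgXIST7 and of 10112 and 12945 CPM in sgXIST9, and the libraries overlapped in both. Of 104 box H/ACA snoRNA genes tested, which guide pseudouridylation, 17 fell and 20 rose, 27 fell and 25 rose, and 20 fell and 23 rose, with medians of 0.04, 0.09 and -0.03. Their summed level over all 182 rows was higher in hypoxia in each line, without overlap. The means went from 1190 to 1612 CPM in sgCtl, from 1256 to 1965 CPM in sgXIST7 and from 1072 to 1455 CPM in sgXIST9. Among all genes tested, 25.2% fell and 26.1% rose in sgCtl, 29.5% and 29.5% in sgXIST7, and 24.8% and 30.5% in sgXIST9. The difference between the classes was not tested. Total RNA libraries of this kind recover short RNAs incompletely, and reads of a snoRNA and of its host intron cannot be told apart here. The libraries were depleted of ribosomal RNA, and 32 of 37 ribosomal RNA rows were at 0 counts in every library. Of the rest, 4 were tested, with at most 658 counts in a library, and they did not move together. In hypoxia RNA28SN2 fell in sgCtl (-2.67 ± 0.65, adjusted p = 0.0025, edgeR) and RNA45SN3 in sgXIST7 (-1.40 ± 0.57, 0.043). RNA28SN5 rose in sgXIST9 (2.90 ± 0.79, 0.0052), and no other of their hypoxia changes passed.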
